A study of Mus musculus with 15 samples.

Results

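Expression of 10 genes that lie near *Lef1* on chromosome 3 was examined in 15 mouse T cell leukemia lines: *Egf*, *Gar1*, *Pla2g12a*, *Casp6*, *Mcub*, *Sec24b*, *Ostc*, *Rpl34*, *Hadh* and *Papss1*. All of them start within 2 Mb of the *Lef1* start as the deposited table lists it, and they are 10 of the 12545 genes in that table. They were also chosen by the difference between the genotypes, since earlier values of that comparison were known when the list was made. Their levels in the 2 genotypes are therefore given as a description, with no p-value for any of them, and counts of calls among them stand only beside those of the whole table. The table lists 16 genes besides *Lef1* in the same window, so 6 of them (*Elovl6*, *Aimp1*, *Tbck*, *Npnt*, *Gstcd* and *Ints12*) are not among the 10.

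RNA was sequenced from lines grown out of thymic leukemias of mice that the paper describes as backcrossed to FVB/NJ over 8 or more generations. There was 1 library per line and no treatment. The 8 DKO lines carry *E2a-/-*, floxed *Lef1* alleles and the *LckCre* transgene, which acts in developing T cells, and the 7 *E2a-/-* lines, whose names start with SKO, carry *E2a-/-* alone. Both groups thus lack E2A, and the floxed allele, the transgene and loss of *Lef1* cannot be told apart in this design. Each line is treated as a replicate, and the labels do not say whether any share an animal, so p-values measure the spread between lines. Levels are in CPM, reads of a gene relative to all reads assigned to genes in the line, scaled to the same total in each. Reads on the listed genes numbered between 4847970 in DKO79.9 and 21681586 in SKO95, and 3 reads correspond to 0.618 CPM in the former and 0.138 CPM in the latter. Such floors cover counting error only. Differences are means of log2(CPM + 1) in DKO lines minus those in *E2a-/-* lines, with the standard error (SE) from limma, and they understate changes of genes with low CPM.

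LEF1 is a DNA-binding protein of the TCF/LEF family that acts with β-catenin in Wnt signaling and is expressed in developing T cells. Genes that lie side by side on a chromosome can share regulatory DNA or a chromatin domain, and they can also be transcribed independently. The 10 genes have unrelated functions, and what joins them is position together with the choice by genotype difference described above.

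*Lef1*, on the plus strand from 130813389 to 130927274 in the coordinates of the table, was at 140 ± 37.1 CPM in DKO lines (SD, n = 8) and at 928 ± 478 CPM in *E2a-/-* lines (SD, n = 7). DKO lines lay between 103 and 210 CPM. Among the *E2a-/-* lines, 6 lay between 668 and 1558 CPM, and SKO132 was at 59.0 CPM, below every DKO line. The floxed part covers only some exons, so reads on the whole gene do not measure the deletion itself. All 8 genes of a T lineage list (*Cd3e*, *Cd3d*, *Cd3g*, *Cd247*, *Thy1*, *Lck*, *Bcl11b* and *Cd2*) are listed, and their sum was 2050 CPM in SKO132, the lowest line, and 4777 CPM in DKO170.2, the highest. *Thy1* or *Lck* was the most abundant of them in each line.

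The widest differences among the 10 genes were those of *Pla2g12a*, *Casp6* and *Mcub*, which follow each other on the chromosome. *Pla2g12a* encodes a secreted phospholipase A2, *Casp6* an effector caspase that cleaves proteins during apoptosis, and *Mcub* a pore subunit that dampens the mitochondrial calcium uniporter. The table places them 1232, 1209 and 1196 kb before the *Lef1* start. *Pla2g12a* and *Casp6* are on the plus strand with 5603 bases between them. *Casp6* and *Mcub* run toward each other, and 856 bases separate their ends. How the counting treated strand is not given in the sources used here, so reads running past the end of *Casp6* or *Mcub* could be counted on the other gene.

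*Pla2g12a* ranged from 17.1 to 85.5 CPM with a median of 44.9 CPM in DKO lines, and from 8.25 to 22.4 CPM with a median of 14.4 CPM in *E2a-/-* lines. DKO79.9 was the low DKO line, under SKO115.2 at 22.4 CPM, and the other 7 DKO lines lay above every *E2a-/-* line. The means were 49.5 ± 20.6 CPM (SD, n = 8) and 15.3 ± 4.44 CPM (SD, n = 7), a log2 difference of 1.56 (SE 0.28).

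For *Casp6*, DKO lines ranged from 17.5 to 59.9 CPM with a median of 23.0 CPM, and *E2a-/-* lines from 7.46 to 20.8 CPM with a median of 13.2 CPM. The groups overlapped through DKO548 and DKOTu3 (17.5 and 20.3 CPM) and SKO115.2 (20.8 CPM), so 6 of 8 DKO lines were above every *E2a-/-* line. DKO170.2 stood highest at 59.9 CPM. Mean levels were 29.1 ± 13.8 CPM (SD, n = 8) and 13.4 ± 4.23 CPM (SD, n = 7), with a log2 difference of 1.01 (SE 0.25).

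*Mcub* was near or at 0 in the *E2a-/-* lines and uneven among the DKO lines. In DKO lines it was at 39.0 CPM in DKO713, 27.3 in DKO170.2, 6.31 in DKO102.4, 5.84 in DKO192.3, 2.60 in DKO241, 2.37 in DKOTu3 and 1.73 in DKO548. DKO79.9, the line with the fewest reads, had 0 reads, which allows up to 0.618 CPM. In the *E2a-/-* lines 4 had 0 reads, and SKO156.6 was highest with 4 reads, or 0.276 CPM. Together the DKO lines held 1612 *Mcub* reads, 807 of them in DKO713, and the *E2a-/-* lines held 8. Means were 10.6 ± 14.4 CPM (SD, n = 8) and 0.0686 ± 0.106 CPM (SD, n = 7), and the log2 difference was 2.51 (SE 0.63). With 0.1 CPM added before the logarithm in place of 1 CPM, that difference was 4.72, so its size is set largely by the added amount. SKO132, whose *Lef1* level was below that of every DKO line, had *Pla2g12a* at 14.3 CPM, *Casp6* at 11.7 CPM and *Mcub* at 0 CPM, like the rest of its group.

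**Figure D1:**
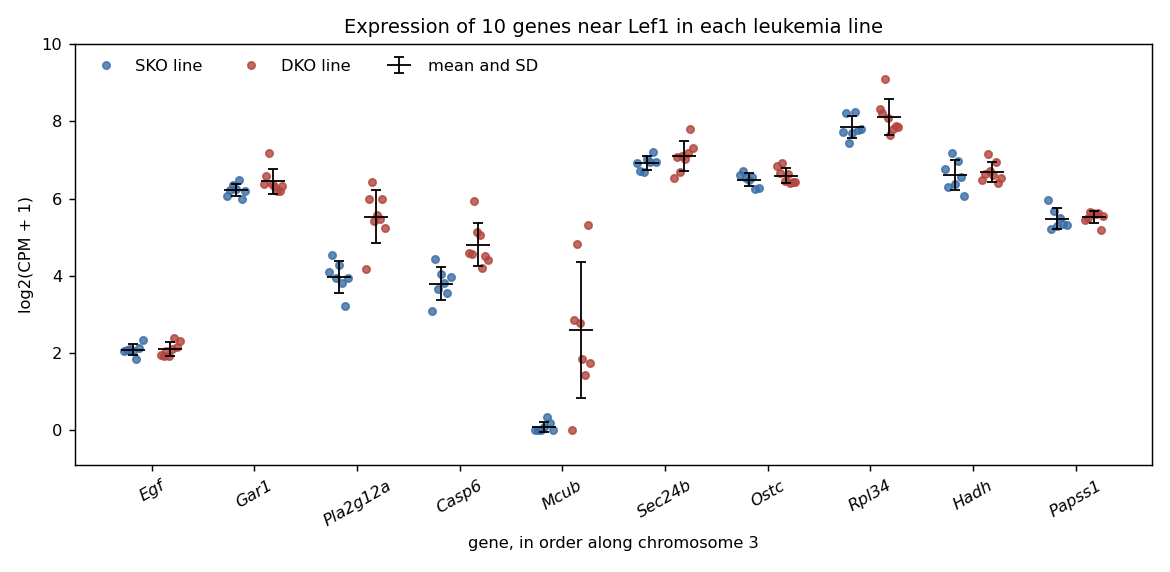
Level of each of the 10 genes, as log2(CPM + 1), in every line (points; blue, 7 *E2a-/-* or SKO lines; red, 8 DKO lines), with the mean and SD of the group in black and the genes in order along chromosome 3. *Pla2g12a* and *Mcub* each have 7 of 8 DKO points above every SKO point, and DKO79.9 is the remaining DKO point.

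The other 7 genes differed by 0.27 or less on the log2 scale. *Gar1*, a protein of the H/ACA particles that guide pseudouridylation of RNA, was at 88.3 ± 23.6 CPM in DKO lines (SD, n = 8) and 74.0 ± 8.55 CPM in *E2a-/-* lines (SD, n = 7), and the log2 difference was 0.23 (SE 0.13). It lies 47209 bases from *Pla2g12a*. *Sec24b*, a cargo-binding protein of the COPII coat, has its end 12552 bases from the start of *Mcub*, and it was at 140 ± 39.8 CPM (SD, n = 8) and 120 ± 15 CPM (SD, n = 7), a log2 difference of 0.18 (SE 0.15), or 0.08 without DKO713. The genes on either side of the *Pla2g12a* to *Mcub* stretch thus had groups that overlapped in most lines.

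Nearer to *Lef1* lie *Ostc*, a subunit of the oligosaccharyltransferase that glycosylates new proteins, and *Rpl34*, a protein of the large ribosomal subunit. *Ostc* had a log2 difference of 0.10 (SE 0.10), with means of 96.6 ± 14.2 CPM (SD, n = 8) and 89.6 ± 10.6 CPM (SD, n = 7). *Rpl34* was at 290 ± 111 CPM (SD, n = 8) and 233 ± 47.4 CPM (SD, n = 7), with a log2 difference of 0.27 (SE 0.19). Without DKO170.2 the difference of *Rpl34* was 0.13, that of *Gar1* was 0.12 and that of *Ostc* was 0.06. *Rpl34* has 2 annotated pseudogenes by name, of which 1 is listed in the table, so its level is uncertain where reads could be split among the copies.

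On the other side of *Lef1* are *Hadh*, an enzyme of mitochondrial fatty acid oxidation whose end lies 9062 bases past that of *Lef1*, and *Papss1*, which makes the sulfate donor PAPS. *Hadh* is the closest of the 10 genes to *Lef1*, and its log2 difference was 0.08 (SE 0.16), with means of 103 ± 19.3 CPM (SD, n = 8) and 99.5 ± 27.5 CPM (SD, n = 7). *Papss1* was at 45.2 ± 4.43 CPM (SD, n = 8) and 44.2 ± 9.06 CPM (SD, n = 7), a log2 difference of 0.05 (SE 0.12), which ran from 0.00 without SKO115.2 to 0.13 without SKO95. *Egf*, which encodes epidermal growth factor and lies farthest away at 1433 kb, was low in both groups at 3.33 ± 0.536 CPM (SD, n = 8) and 3.28 ± 0.416 CPM (SD, n = 7), with a log2 difference of 0.01 (SE 0.13). Of the 10 genes, the closest to *Lef1* and the farthest thus both had small differences. An order by distance was not tested, and nothing is read about it, because the genes were chosen by the same contrast.

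Per kb of the width listed for each gene, the mean level over all lines was highest for *Rpl34* at 114.7 CPM per kb, followed by *Ostc* at 88.3, *Hadh* at 18.3, *Papss1* at 17.2 and *Gar1* at 15.7 CPM per kb. These 5 kept that order in each genotype, and the order of the other 5 depended on the genotype. In DKO lines it was *Casp6* (11.2), *Pla2g12a* (11.1), *Sec24b* (8.28), *Mcub* (3.39) and *Egf* (0.261 CPM per kb), and in *E2a-/-* lines *Sec24b* (7.12), *Casp6* (5.18), *Pla2g12a* (3.44), *Egf* (0.257) and *Mcub* (0.0219 CPM per kb). Neighbours in the order such as *Hadh* and *Papss1* are closer together than the spread of each over lines. All 10 genes have a mean of at least 1 CPM over the lines, and 1 of them, *Mcub*, reaches it only through the DKO lines.

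The spread among lines also differed from gene to gene. The SD of log2(CPM + 1) among DKO lines was 1.77 for *Mcub*, 0.67 for *Pla2g12a* and 0.55 for *Casp6*, beside a median of 0.34 for all genes that averaged 5 CPM or more. *Papss1* (0.15) and *Egf* (0.17) varied least among DKO lines. For *E2a-/-* lines the median over genes was 0.28, and *Casp6* (0.43) and *Pla2g12a* (0.42) had the widest spread of the 10. DKO170.2 held the highest DKO level of 7 of the 10 genes (*Gar1*, *Pla2g12a*, *Casp6*, *Ostc*, *Rpl34*, *Hadh* and *Papss1*). DKO79.9 held the lowest of 3 (*Pla2g12a*, *Mcub* and *Sec24b*), and so did DKO548 (*Gar1*, *Casp6* and *Ostc*). The median shift of 449 of the 570 genes listed on chromosome 3, relative to all autosomes, was between -0.07 in DKO170.2 and 0.05 in DKO102.4 on the log2 scale. A subset of 19 of the listed genes within 5 Mb of *Lef1* that are not among the 10 was read without subtracting the autosomes. Their median shift from the level of each gene in the middle line ran from -0.24 in DKO79.9 to 0.28 in DKO548. This range includes any shift of the whole line and rests on fewer genes, so it cannot be set against that of the chromosome.

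Over the whole table, limma with Benjamini-Hochberg adjustment called 6 of 12545 genes between the genotypes at an adjusted p under 0.01, or 0.0478%, and 0 of the 10 genes were among them. With edgeR's quasi-likelihood test it was 1 gene (0.00797%) and 0 of the 10. DESeq2 called 177 of 12543 genes (1.41%), 3 of the 10 among them, and edgeR's likelihood ratio test, added after seeing the data, called 155 genes (1.24%), 2 of the 10 among them. The count over the table in limma ran from 3 to 17 with a line left out. At an unadjusted p under 0.05 limma called 10.2% of all genes, and 3 of the 10. A log2 difference of at least 1 in either direction was found for 6.22% of all genes and for 3 of the 10, *Pla2g12a*, *Casp6* and *Mcub*. Groups did not overlap for 0.175% of all genes, and overlapped for each of the 10. Nothing is read from these counts, because the same contrast was in view when the genes were chosen. All 10 differences were above 0, with a median of 0.20, against 5810 of 12545 genes above 0 and a median of -0.02 over the table. Of the 6 genes left out of the list 5 were below 0, and how far the choice set the common direction was not tested. The sign was not fixed for *Egf* (-0.03 without DKO548) and *Hadh* (-0.01 without SKO163.5).

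Among those 6 genes in the same window, 2 were lower in DKO lines by at least 1 on the log2 scale. *Elovl6*, a fatty acid elongase that starts 1578 kb before *Lef1*, was at 52.8 ± 32.2 CPM in DKO lines (SD, n = 8) and 106 ± 29.3 CPM in *E2a-/-* lines (SD, n = 7), a log2 difference of -1.29 (SE 0.45). *Npnt*, a matrix protein gene 1731 kb past the *Lef1* start, was at 11.9 ± 13.2 CPM (SD, n = 8) and 40.1 ± 37.2 CPM (SD, n = 7), a log2 difference of -1.66 (SE 0.80). *Npnt* varied widely within each group, and the groups overlapped for both genes. *Tbck* (-0.28), *Gstcd* (-0.15), *Ints12* (-0.13) and *Aimp1* (0.14) had smaller log2 differences. *Gstcd* and *Ints12* overlap by 194 bases on opposite strands, so their reads may not be told apart. *Ints12*, at 1941 kb, is the last gene inside the window, and *Ppa2*, 2.16 Mb from the *Lef1* start with a log2 difference of 0.01, is the first outside it.

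**Figure D2:**
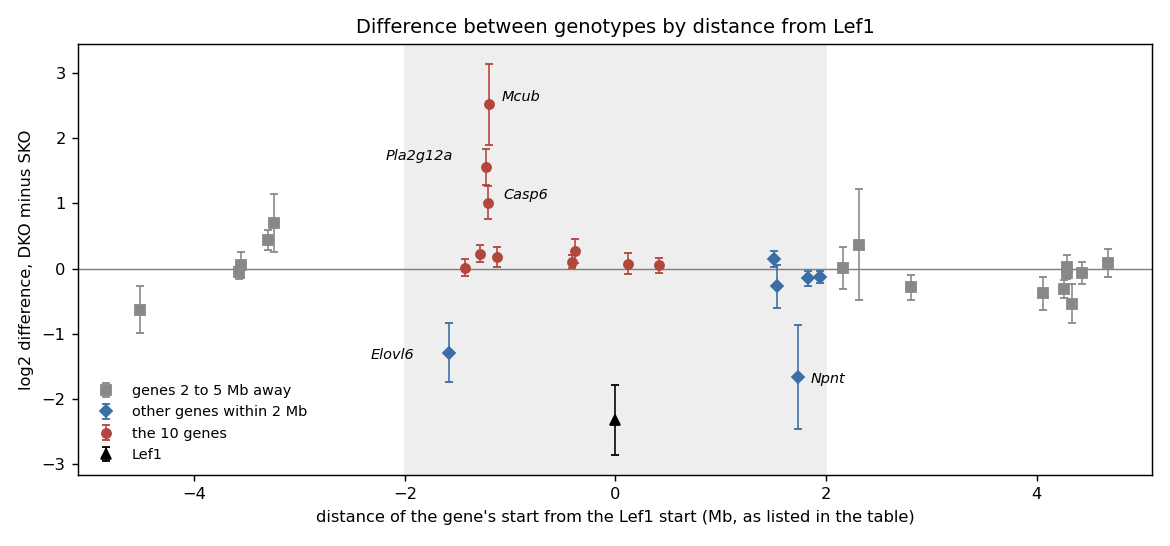
Log2 difference, DKO minus SKO lines, with limma's standard error (bars), for genes within 5 Mb, by distance of their start from the *Lef1* start in Mb, with the window of 2 Mb on each side shaded. Red circles are the 10 genes, blue diamonds the 6 other genes in the window, grey squares the 15 genes 2 to 5 Mb away and the black triangle *Lef1*; *Pla2g12a*, *Casp6* and *Mcub* are the only points shown that lie above 1.

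Genes farther out were not used to choose the list, so the test applies to them. Of 15 genes that start 2 to 5 Mb from *Lef1*, limma called 0 at an adjusted p under 0.01, and edgeR's quasi-likelihood test, its likelihood ratio test and DESeq2 also called 0. Those tests called 0.0478%, 0.00797%, 1.24% and 1.41% of the whole table, in that order. At an unadjusted p under 0.05 in limma, 2 of the 15 passed, beside 10.2% of all genes. These were *Ap1ar* (0.44), higher, and *Cisd2* (-0.31), lower on the log2 scale. The counts that passed are near the shares over the table, so nothing is read from them about the region. The median log2 difference of the 15 was -0.05, with 7 of 15 above 0. The largest differences among those that averaged 5 CPM or more were those of *Fam241a* (0.70, SE 0.45, adjusted p = 0.612 from limma), *Camk2d* (-0.63, SE 0.36, adjusted p = 0.570) and *Manba* (-0.54, SE 0.30, adjusted p = 0.566). In the wider span of 2 to 10 Mb, limma called 0 of 42 genes, with 4 at an unadjusted p under 0.05 and 0 that differed by 1 or more. The share of all genes that differed by 1 or more was 6.22%.

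Partners of 9 of the 10 genes elsewhere in the genome were read from 9 lists of 70 genes in all, with no list for *Rpl34*, of which 60 are in the table. None of the 60 passed an adjusted p under 0.01 in limma, edgeR's quasi-likelihood or likelihood ratio test, or DESeq2. Over the whole table these tests called 0.0478%, 0.00797%, 1.24% and 1.41% of genes, in that order. In limma 7 of the 60 had an unadjusted p under 0.05, 4 of them higher in DKO lines, beside 10.2% of all genes. The counts that passed are near the shares over the table, so nothing is read from them about the partners. The median log2 difference of the 60 was 0.01 with 34 above 0.

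For *Casp6*, the list of caspases and their activators had 6 of 6 genes listed, with a median log2 difference of -0.14. In that list, *Casp8*, which starts apoptosis from death receptors, had a log2 difference of -0.98 (SE 0.35, adjusted p = 0.336 from limma). For *Mcub*, 0 of 6 genes of the uniporter list had an unadjusted p under 0.05 in limma (median 0.08), beside 10.2% of all genes. *Smdt1*, which encodes the EMRE subunit, had the lowest p there, with a log2 difference of 0.41 (SE 0.21, adjusted p = 0.533 from limma). For *Pla2g12a*, 3 of 7 phospholipase A2 genes are listed (median -0.04), and *Pla2g16* had a log2 difference of -0.32 (SE 0.68, adjusted p = 0.904 from limma).

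Among the partners of *Gar1*, *Nhp2* had a log2 difference of 0.38 (SE 0.16, adjusted p = 0.436 from limma), and the median of the 5 H/ACA genes was 0.21. For *Sec24b*, the 10 COPII genes had a median of -0.01, and *Sec23b* had the lowest p at a log2 difference of -0.19 (SE 0.11, adjusted p = 0.585). The 11 oligosaccharyltransferase genes, partners of *Ostc*, had a median of 0.04, with *Ost4* at 0.32 (SE 0.15, adjusted p = 0.494). These enzymes and coats are assembled from many proteins. None of the partner genes named here passed the test, which 0.0478% of all genes passed in limma. Of the fatty acid oxidation genes beside *Hadh*, 11 of 12 are listed with a median of 0.01, and *Cpt1a*, which admits fatty acids to mitochondria, had a log2 difference of -0.72 (SE 0.29, adjusted p = 0.407). *Papss2*, the paralog of *Papss1*, was at 33.1 ± 17.0 CPM (SD, n = 8) and 12.9 ± 12.5 CPM (SD, n = 7), a log2 difference of 1.95 (SE 0.74, adjusted p = 0.386 from limma), and the median of its list of 4 was 0.04. Of 9 EGF ligands and receptors, 4 are listed with a median of 0.15, and *Hbegf* had the lowest p, with a log2 difference of 0.72 (SE 0.25, adjusted p = 0.336 from limma).

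Whether the 10 genes vary together was asked within each genotype, where the difference between genotypes plays no part. Pearson's r of log2(CPM + 1) was computed for the 45 pairs in each genotype, with two-sided exact permutation of the pairing of lines and Benjamini-Hochberg adjustment over the 90 tests. No pair passed an adjusted p under 0.05 in either genotype. In DKO lines the median r was 0.30, with 31 of 45 pairs above 0 and 7 with an unadjusted p under 0.05. In *E2a-/-* lines it was -0.05, with 21 of 45 above 0 and 2 with an unadjusted p under 0.05. *Mcub* is at the floor in those lines, so the 9 pairs that hold it carry little there. Over the other 36 pairs, a count added after seeing the data, the median was 0.29 in DKO lines with 25 above 0, and -0.05 in *E2a-/-* lines with 17 above 0. Beside these, the median r over all pairs of listed genes was 0.016 in DKO and 0.009 in *E2a-/-* lines, and over pairs on a chromosome within 2 Mb of each other it was 0.13 and 0.060. The DKO median rests on DKO170.2, since without that line it was -0.12.

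The pair with the lowest p was *Pla2g12a* and *Mcub* in DKO lines, with r = 0.86 (exact permutation p = 0.00456, adjusted p = 0.201, n = 8) and Spearman's rho = 0.86 (exact permutation p = 0.0107, adjusted p = 0.185). Without DKO170.2 and DKO79.9, the lines farthest from the median of *Pla2g12a*, r was 0.73. In *E2a-/-* lines, where *Mcub* is at the floor, r of this pair was -0.51 (exact permutation p = 0.252, n = 7) and rho was -0.57 (exact permutation p = 0.20). *Casp6* lies between these genes, and in DKO lines its r with *Pla2g12a* was 0.45 (exact permutation p = 0.263, adjusted p = 0.592, n = 8), with rho = 0.26 (exact permutation p = 0.536). With *Mcub* its r was also 0.45 (exact permutation p = 0.261, adjusted p = 0.592, n = 8), with rho = 0.33 (exact permutation p = 0.428). Both rest on the lines farthest from the median, since r was -0.08 for *Pla2g12a* without DKO170.2 and DKO79.9 and -0.02 for *Mcub* without DKO170.2 and DKO192.3. The difference in r between genotypes was not tested.

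Of the other pairs in DKO lines, *Gar1* and *Rpl34* had the highest r at 0.92 (exact permutation p = 0.010, adjusted p = 0.201, n = 8), with rho = 0.86 (exact permutation p = 0.0107). It was 0.48 without DKO102.4 and DKO170.2, so it rests on those lines. *Sec24b* and *Ostc* ran opposite to each other, with r = -0.81 (exact permutation p = 0.00957, adjusted p = 0.201, n = 8) and rho = -0.86 (exact permutation p = 0.0107), and r was -0.93 without DKO713 and DKO79.9. *Hadh* and *Papss1*, neighbours on the far side of *Lef1*, had r = 0.72 (exact permutation p = 0.0414, adjusted p = 0.414, n = 8) and rho = 0.93 (exact permutation p = 0.00223, adjusted p = 0.185). *Ostc* and *Rpl34*, 17386 bases apart, had r = 0.77 (exact permutation p = 0.0134, adjusted p = 0.201, n = 8) and rho = 0.76 (exact permutation p = 0.0368), and r fell to 0.18 without DKO170.2 and DKO79.9. Without DKO241 this was the only pair that passed, with r = 0.89 and an adjusted p of 0.0179 from the exact permutation test. These pairs had r of the same sign in *E2a-/-* lines (n = 7). There r was -0.73 for *Sec24b* and *Ostc* and 0.67 for *Hadh* and *Papss1*. It was 0.27 for *Gar1* and *Rpl34* and 0.33 for *Ostc* and *Rpl34*. In *E2a-/-* lines the strongest pair was *Casp6* and *Papss1*, with r = -0.85 (exact permutation p = 0.0119, adjusted p = 0.201, n = 7) and rho = -0.89 (exact permutation p = 0.0123), and r was -0.46 without SKO115.2 and SKO95.

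**Figure D3:**
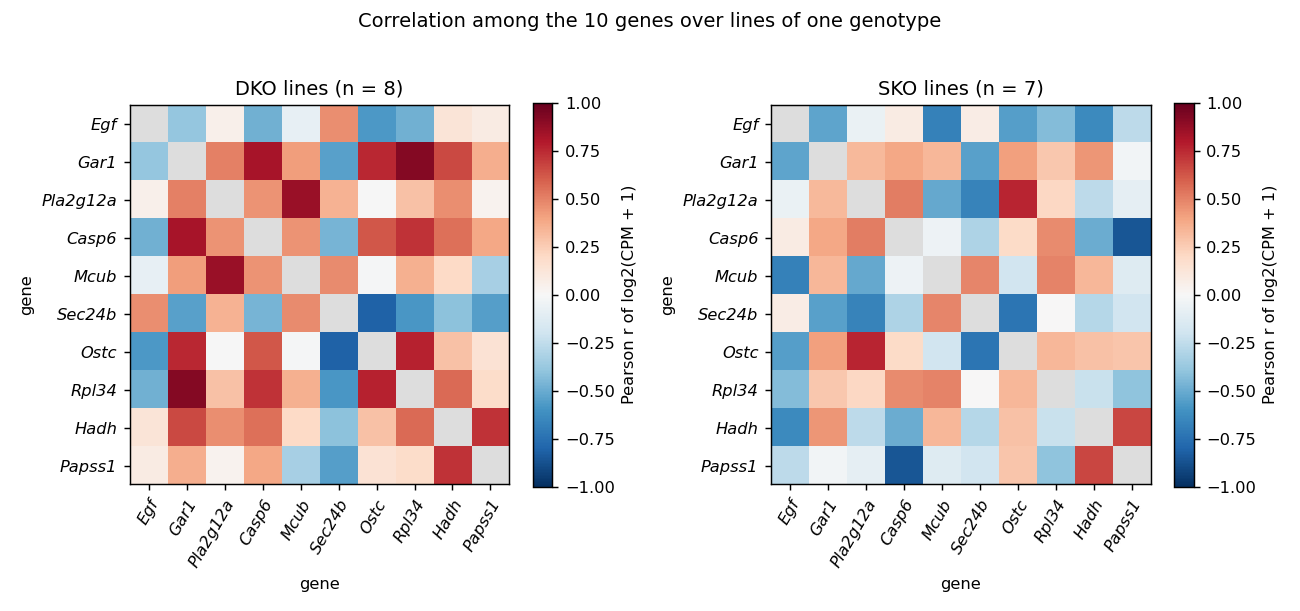
Pearson's r of log2(CPM + 1) for each pair of the 10 genes over the 8 DKO lines (left) and the 7 SKO lines (right), with red above 0, blue below 0, the diagonal in grey, and genes in order along chromosome 3 on both axes. *Pla2g12a* and *Mcub* stand at 0.86 in DKO and at -0.51 in SKO lines, and no pair passed the adjusted test.

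The level of *Lef1* itself was compared with the 10 genes in the same way, over 20 tests. No gene passed an adjusted p under 0.05. *Rpl34* had the lowest p, with r = 0.73 in *E2a-/-* lines (exact permutation p = 0.0192, adjusted p = 0.292, n = 7) and rho = 0.79 (exact permutation p = 0.0480). It was followed by *Hadh*, with r = -0.72 in *E2a-/-* lines (exact permutation p = 0.0292, adjusted p = 0.292, n = 7) and rho = -0.75 (exact permutation p = 0.0663). Without SKO115.2 and SKO132 these were 0.41 and -0.44, so they rest on those lines. For *Mcub* in DKO lines r was -0.05 (exact permutation p = 0.909, n = 8) and rho was 0.24 (exact permutation p = 0.582). For *Pla2g12a* r was -0.29 (exact permutation p = 0.496, n = 8) and rho was 0.17 (exact permutation p = 0.703). Without DKO102.4 and DKO79.9, the DKO lines with the highest *Lef1* levels, r was 0.89 for *Mcub* and 0.68 for *Pla2g12a*, so the sign of both turned with those lines.

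Genes whose pattern over the 15 lines was most like these, after the mean of each genotype was taken off, were sought among 9706 genes that averaged 5 CPM or more. For *Pla2g12a* they were *Zfp639*, also on chromosome 3 (r = 0.88), *Fam98b* (r = 0.86) and *Arl1* (r = 0.81), and *Mcub* came at rank 17 (r = 0.73). *Casp6* was most like *Dut* (r = 0.83), *Faim* (r = 0.82) and *Rpl21* (r = 0.82), with *Gar1* at rank 79. For *Mcub* they were *Srfbp1* (r = 0.88), *Taf1d* (r = 0.86) and *Stra6l* (r = 0.82), and *Pla2g12a* came at rank 9. *Mcub* averages 5 CPM only through the DKO lines and is at the floor in the others, so the variation of *Mcub* behind these values and its rank for *Pla2g12a* is almost all among DKO lines. These values are a description over 15 lines, picked as the highest of many.

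For *Pla2g12a*, *Casp6* and *Mcub*, the 3 with the widest differences, the DNA before their starts is shown, as RefSeq lists it in build GRCm38.p6, whose coordinates are not those of the table. Promoters were found for 9 of the 10 genes, 12 promoters in all; *Ostc* had none. The 250 bases before each start were searched on both strands for CTTTGA, a core recognized by TCF/LEF proteins, and for the E-box CANNTG, recognized by E proteins such as E2A. No 2 matches of the different motifs overlapped. CTTTGA was found in 0 of the 12, and it is present in 13.8% of all 32851 promoters of the same length. Sequences that differ from it by a letter, such as CTTTGT, were not searched. CANNTG was found in 9 of the 12, and is present in 66.2% of all. The 2 windows of *Rpl34* overlap and share a CACGTG, so that site is counted in both. Each sequence is written 5′ to 3′ on the strand of its gene and ends at the base before the start, with E-boxes in capitals. The windows are chr3:129880934-129881183 (plus strand) for *Pla2g12a*, with no E-box, chr3:129901165-129901414 (plus strand) for *Casp6*, with 2, and chr3:129970207-129970456 (minus strand) for *Mcub*, with 1.
Pla2g12a: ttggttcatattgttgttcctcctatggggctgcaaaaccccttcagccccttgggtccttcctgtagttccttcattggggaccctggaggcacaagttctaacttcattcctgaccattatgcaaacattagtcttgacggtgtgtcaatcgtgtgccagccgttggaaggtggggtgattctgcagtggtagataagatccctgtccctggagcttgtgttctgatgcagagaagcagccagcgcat
Casp6: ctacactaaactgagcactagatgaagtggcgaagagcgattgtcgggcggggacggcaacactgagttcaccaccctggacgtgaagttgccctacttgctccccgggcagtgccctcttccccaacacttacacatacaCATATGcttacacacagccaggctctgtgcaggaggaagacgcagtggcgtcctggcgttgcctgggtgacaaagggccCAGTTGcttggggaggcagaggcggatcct
Mcub: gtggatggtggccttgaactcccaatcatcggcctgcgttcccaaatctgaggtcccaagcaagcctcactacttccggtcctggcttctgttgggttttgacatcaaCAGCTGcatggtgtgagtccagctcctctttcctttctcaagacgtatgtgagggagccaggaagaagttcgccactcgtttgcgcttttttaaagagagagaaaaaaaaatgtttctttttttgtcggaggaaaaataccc
A match describes letters only, and the absence of a match says nothing of sites elsewhere. The E-boxes are CATATG and CAGTTG for *Casp6* and CAGCTG for *Mcub*, so the motifs searched are not shared by the 3 windows.

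Markers of other cells were read from lists as well. None of 5 B cell markers and none of 5 erythroid markers are in the table. Of 5 myeloid markers *Lyz2* and *Itgam* are listed, and their sum ran from 5.81 to 14.0 CPM in DKO and from 5.48 to 12.7 CPM in *E2a-/-* lines, with *Itgam* the most abundant in 14 of 15 lines. Of 5 thymic epithelial markers *Epcam* alone is listed, at 8.24 CPM or less, and it was at 0 in 6 of 15 lines. Of 5 stromal markers *Col1a2* and *Pdgfra* are listed. Their sum ran from 3.89 CPM in DKOTu3 to 947 CPM in DKO192.3 among DKO lines, and from 1.84 CPM in SKO95 to 280 CPM in SKO156.6 among *E2a-/-* lines, with *Col1a2* the most abundant in 14 of 15 lines. *Col1a1*, *Col3a1* and *Dcn* are not listed. The part of these in the differences above was not tested, and in bulk RNA fewer cells of a type and less RNA per cell cannot be told apart.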

How the data were processed

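RNA was sequenced from 15 lines, 8 DKO and 7 *E2a-/-* by their labels. The authors trimmed reads with Trimmomatic (version 0.33), aligned them with TopHat2 (version 2.1.0), counted them per gene with HTSeq (version 0.6.1) and scaled them with edgeR, and deposited CPM values. The labels name mm10, but only 190 of 12172 genes with a symbol start within 1 base of their GRCm38 position, so positions near *Lef1* are given as the table lists them. Every value was a whole multiple, within 0.1, of what 1 read is worth in its line, in 100% of values, and these whole reads entered only the count tests. No pair of libraries within a genotype agreed within sampling noise, and pairs across genotypes were not compared.

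The members and gene lists were chosen with earlier results of these data known. Log2(CPM + 1) of all 12545 genes was modelled in limma 3.58.1 under R 4.3.3 with a variance trend, two-sided, with Benjamini-Hochberg adjustment and a threshold of 0.01, without a filter on low values. Correlations were tested with numpy 2.4.6 under Python 3.11.15. The programs were tested on simulated data. Genes named are the 10, *Lef1*, all other genes within 2 Mb, the 3 largest log2 differences among genes 2 to 5 Mb away with a mean of at least 5 CPM, the gene with the lowest p of each partner list, and the 3 most alike for *Pla2g12a*, *Casp6* and *Mcub*; others named (*Ap1ar*, *Cisd2*, *Ppa2*, *Casp8*) were picked after their values were seen. The result for 1 gene of the partner lists that this rule names is not reported here. A symbol in use was matched only to its own gene, and older names only where no other gene bears them now.

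Alternatives were pseudocounts of 0.1 and 2 CPM, median-of-ratios and upper-quartile scaling, a minimum mean of 1 CPM, limma without a trend, an adjusted p under 0.05, edgeR's quasi-likelihood test (version 4.0.16), DESeq2 (version 1.42.0), genes up to 10 Mb away, Spearman's rho, subtraction of the chromosome 3 shift, and each line left out. A likelihood ratio test with tagwise dispersions, an average of SKO156.6 and SKO186.5, and pairs without *Mcub* were added after seeing the data.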

Additional observations from a re-analysis of the deposited data

Results flagged for a closer look

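In 5 of 34 comparisons of a gene within a genotype, the highest or lowest line lay apart from the rest on the log2 scale. The gap was wider than Dixon's gap test allows, where chance gives about 1.7 such comparisons. The levels below are in CPM, so the gaps between them are not those that were tested. In DKO170.2, *Gar1* was at 144 CPM with the other DKO lines between 72.4 and 94.2 CPM, and *Rpl34* was at 547 CPM with the others between 199 and 317 CPM. The same line had *Tbck* at 1.98 CPM, below the others at 7.53 to 17.9 CPM. *Papss1* was at 35.8 CPM in DKO713, under the other DKO lines at 42.4 to 48.9 CPM. *Lef1* was at 59.0 CPM in SKO132, with the other *E2a-/-* lines between 668 and 1558 CPM.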

How the results depend on the processing

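The count of genes called over the whole table, 6, depended most on the test. It was 1 with edgeR's quasi-likelihood test, 177 with DESeq2, 155 with the likelihood ratio test added after seeing the data, and 19 at an adjusted p under 0.05. It ran from 3 (without DKO170.2, DKO713, SKO137.1 or SKO156.6) to 17 (without SKO132), and was 10 without DKO79.9. The cause was not tested. Counts of called genes 2 to 5 Mb from *Lef1*, of called partner genes, of pairs within *E2a-/-* lines and of genes correlated with *Lef1* stayed at 0 under each alternative run for them. Pairs within DKO lines numbered 0 to 1 with a line left out. The median r of the 10 genes in DKO lines was 0.167 as Spearman's rho and ran from -0.119 (without DKO170.2) to 0.418 (without DKO713). In *E2a-/-* lines it was -0.109 with SKO156.6 and SKO186.5 averaged and ran from -0.0835 to 0.0233 with a line left out.

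Log2 differences with a line left out ran from 1.43 to 1.75 for *Pla2g12a*, 0.85 to 1.12 for *Casp6* and 2.13 to 2.89 for *Mcub*, which was at 4.72 with a pseudocount of 0.1 CPM and 1.89 with 2 CPM. *Egf* (-0.03 to 0.05) and *Hadh* (-0.01 without SKO163.5) crossed 0. Levels under 3 reads, as of *Mcub* in most *E2a-/-* lines, are not told apart from 0. No paired analysis was possible because the names of DKO and SKO lines have no number in common.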
